A study of Mus musculus with 2 samples.

Results

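In all, 10 genes of striated muscle were followed through the RNA and the open chromatin of one brain preparation: Acta1, Ttn, Tnnt3, Tnnc2, Myl1 and Neb of the sarcomere, Ckm, Car3 and Cox8b of muscle metabolism, and Srl of the calcium store. These 10 genes, of 32285 in the count matrix, were selected from the RNA of these same libraries, where muscle transcripts had been seen to gather in some spots, so their RNA differences between spots are given as descriptions and not as tests. SPARC-seq, which reads RNA and accessible DNA from the same barcodes, had been run on brain tissue of a C57BL/6 mouse embryo at E18.5 that was homozygous for the Ctcf mutation R567W, made by CRISPR/Cas9 editing. There was 1 library for RNA and 1 for accessible chromatin, both of that genotype, with no replicate and no wild-type library analysed here, so every value below compares places within these libraries and none measures the mutation. Each barcode joins a first and a second segment of 8 bases, and the 1993 barcodes of the matrix are called spots here because the segments pair as rows and columns would. A spot can hold several cells, and the positions of the segments were not given in the sources used here.

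The sarcomere is the contractile unit of skeletal and heart muscle. Thin filaments of actin slide along thick filaments of myosin, troponin lets calcium switch the movement on, and the giant proteins titin and nebulin set the length and spacing of the filaments. Muscle fibres also carry their own enzymes for buffering ATP and their own store of calcium, and brain neurons and glia are not known to build sarcomeres.

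The RNA library held 8726497 UMIs (unique molecular identifiers, each a counted RNA molecule), of which 35284 came from the 10 genes, or 0.404%. Levels are given in CPM, the UMIs of a gene scaled to a total of 1000000 UMIs in the same spots, and all intervals are exact 95% intervals that cover counting error only. To place the spots without using the 10 genes, the 48 second segments were ranked by the summed CPM of 62 other muscle genes. The list level stood at 13694 CPM or more in the first 6 second segments and at 7496 CPM or less in the other 42, and the first 6, with 280 spots, are called the rich segments. The sums of neuron markers and of radial glia markers went the other way, at 0.657 (0.633 to 0.682) and 0.709 (0.648 to 0.774) times their level in the rest. In the tissue labelled brain, the brain markers as sums were thus lower in the rich segments. That the muscle markers were higher there was fixed by the ranking. Of single brain markers, Snap25, at 0.914 (0.770 to 1.08), Pax6, at 0.912 (0.710 to 1.16), and Sox2, at 1.08 (0.776 to 1.48), had intervals that included 1, and those of the others lay under 1. In spots, fewer muscle cells and less RNA per muscle cell cannot be told apart.

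The promoters of 4 genes are shown first, as sequence only, and those of Ttn, Tnnc2 and Ckm were chosen after values were seen. Accessible DNA at promoters was counted below in wider windows round annotated starts. RefSeq sequences before the gene start (GRCm38.p6) were at hand for 6 of the 10 genes, namely Acta1, Ttn, Tnnc2, Myl1, Ckm and Cox8b, and Tnnt3, Neb, Car3 and Srl are named only. Each is written 5′ to 3′ on the strand of the gene, without bases of annotated exons. Capitals mark letters that match motifs known from muscle promoters or the core promoter. The sequence of Acta1 lies at chr8:123894776-123895025 (minus strand), that of Ttn at chr2:76982548-76982797 (minus strand), that of Tnnc2 at chr2:164779742-164779867 (minus strand) and that of Ckm at chr7:19410844-19411024 (plus strand).
Acta1: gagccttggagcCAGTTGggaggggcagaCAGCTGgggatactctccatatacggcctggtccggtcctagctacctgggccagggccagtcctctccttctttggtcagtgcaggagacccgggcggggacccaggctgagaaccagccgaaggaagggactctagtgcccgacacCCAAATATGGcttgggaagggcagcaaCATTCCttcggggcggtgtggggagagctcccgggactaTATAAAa
Ttn: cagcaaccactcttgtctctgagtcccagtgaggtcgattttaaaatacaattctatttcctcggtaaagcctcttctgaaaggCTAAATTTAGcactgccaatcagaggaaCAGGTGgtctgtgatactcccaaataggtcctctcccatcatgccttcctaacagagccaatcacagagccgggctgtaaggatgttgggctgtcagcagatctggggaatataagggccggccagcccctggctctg
Tnnc2: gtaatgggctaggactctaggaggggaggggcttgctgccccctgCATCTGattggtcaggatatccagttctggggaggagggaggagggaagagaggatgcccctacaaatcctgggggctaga
Ckm: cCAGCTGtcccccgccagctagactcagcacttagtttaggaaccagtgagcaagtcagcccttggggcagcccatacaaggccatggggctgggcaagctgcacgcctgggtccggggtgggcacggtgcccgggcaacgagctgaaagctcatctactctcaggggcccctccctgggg
The motifs searched were the E-box CANNTG, which muscle regulators of the MyoD family bind, the TATA box TATAAA on the strand of the gene, the M-CAT element CATTCC on both strands, and, by name alone, the MEF2 site and the CArG box of serum response factor. The E-box, the MEF2 site and the CArG box read alike on both strands. Over the 250 bases before the RefSeq start, all 6 promoters held an E-box, as did 66.2% of 32851 promoters of the same length. The M-CAT element was in 2 of the 6, Acta1 and Myl1, and in 12.6% of all promoters. Acta1 alone of the 6 held a CArG box, found in 1.47% of all promoters, and a TATAAA, found in 7.59%, and Ttn alone held a MEF2 site, found in 2.92%. These matches describe the letters and show no binding.

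RNA of all 10 genes was higher in the rich segments than in the rest, by 2.42-fold for Ttn to 5.73-fold for Car3. Summed, the 10 genes stood at 9057 CPM (8906 to 9209) in the rich segments and at 2986 CPM (2946 to 3026) in the other 42, a ratio of 3.03 (2.97 to 3.10). The rich segments held 17.4% of all UMIs and 39.0% (38.5 to 39.5) of those of the 10 genes. All 10 of the 10 genes were at least 2-fold higher in the rich segments, against 5.52% of the 12950 genes with at least 50 UMIs, a contrast that the choice of the genes had used. Over all genes with that count the median ratio was 0.988, and over the 10 genes it was 3.17.

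**Figure D1:**
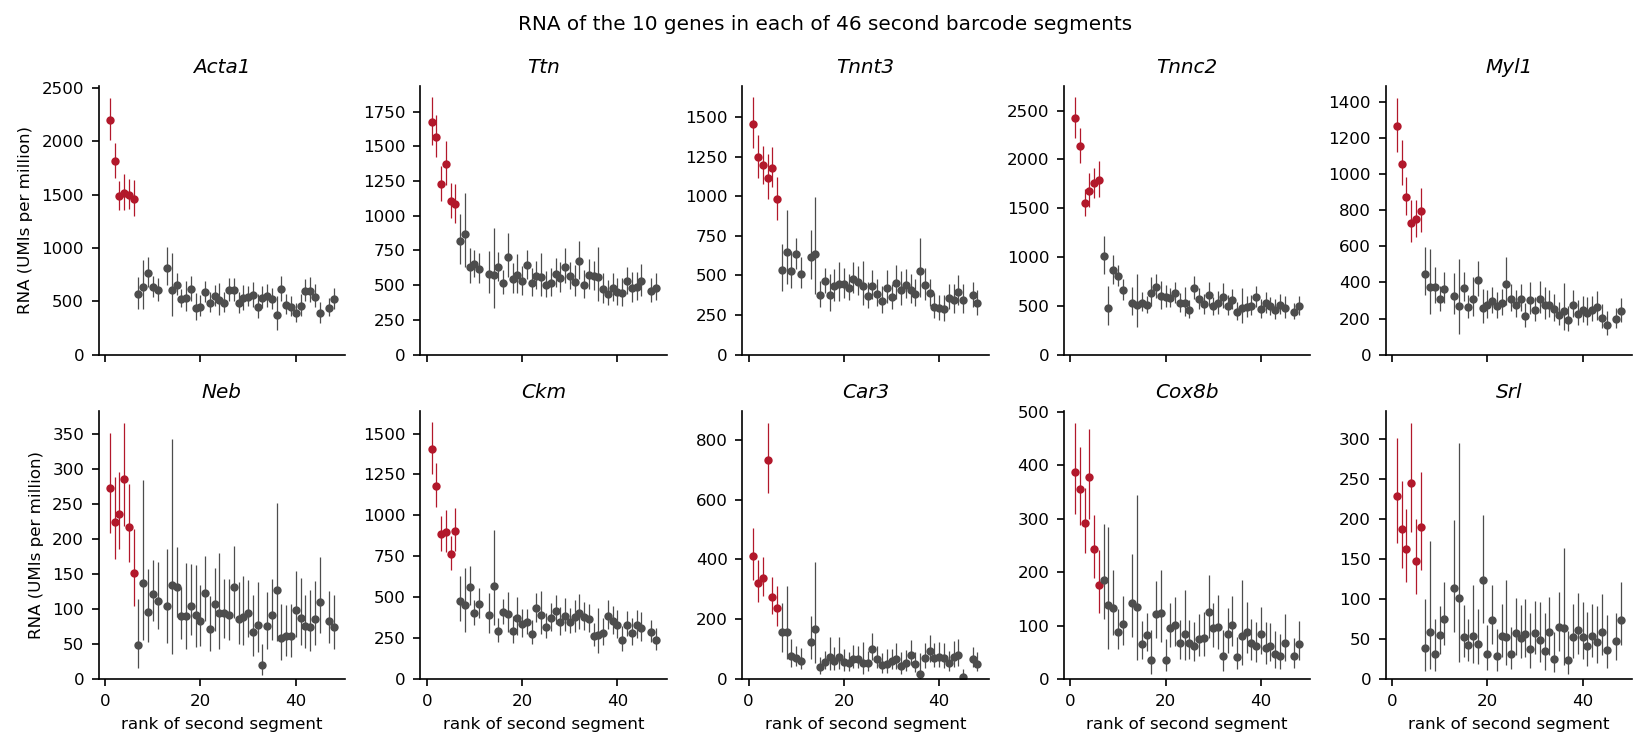
RNA of each of the 10 genes (CPM, y axis) in the 46 second segments with at least 10 spots, ordered on the x axis by the rank of the other muscle genes. Points are levels and bars exact 95% Poisson intervals. The 6 red points at the left are the rich segments, and the grey points to their right never reach them except in Cox8b, while no grey point is at 0.

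Among the thin filament genes, Acta1, the skeletal muscle actin, ranged from 1461 to 2206 CPM over the 6 rich segments with a median of 1510 CPM, and from 367 to 815 CPM over the 40 other segments with at least 10 spots. Ranges over segments leave out 2 with few reads, of 2 and 4 spots, while pooled levels and ratios include them. The groups did not overlap among segments with at least 10 spots, and the ratio of their pooled levels was 3.07 (2.92 to 3.23). Tnnt3, the fast skeletal troponin T that ties the troponin complex to tropomyosin, ranged from 982 to 1458 CPM in the rich segments and from 285 to 650 CPM in the others, with a ratio of 2.87 (2.71 to 3.04). Tnnc2, the fast skeletal troponin C that binds calcium, ranged from 1554 to 2420 CPM against 438 to 1005 CPM, with a ratio of 3.34 (3.18 to 3.50). Here too every rich segment stood above every other segment with at least 10 spots. Neb encodes nebulin, which runs along the thin filament, and it ranged from 152 to 286 CPM against 19.6 to 138 CPM, with a ratio of 2.57 (2.25 to 2.93).

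On the myosin side, Myl1, a fast skeletal myosin light chain, ranged from 732 to 1267 CPM in the rich segments and from 166 to 449 CPM in the others, with a ratio of 3.28 (3.06 to 3.51). Ttn, which encodes titin and spans the sarcomere from its edge to its middle, ranged from 1082 to 1677 CPM against 439 to 866 CPM. Its ratio of 2.42 (2.29 to 2.55) was the smallest of the 10, and yet its rich segments did not overlap the others with at least 10 spots.

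The metabolic genes were not alike in their spread over segments. Ckm, the muscle creatine kinase that recharges ATP, ranged from 763 to 1404 CPM in the rich segments and from 237 to 570.5 CPM in the others, with a ratio of 2.81 (2.64 to 2.997). Cox8b, a subunit isoform of cytochrome c oxidase in muscle and brown fat, ranged from 176 to 387 CPM against 36.1 to 185 CPM, with a ratio of 3.82 (3.37 to 4.32). Among segments with at least 10 spots it was the only one of the 10 whose groups overlapped, since the second segment ranked 7 exceeded the lowest rich segment. Car3, a carbonic anhydrase abundant in slow muscle and in fat, ranged from 237 to 732 CPM against 6.15 to 168 CPM, with a ratio of 5.73 (5.07 to 6.49), which ranked 27 among the 12950 genes. With the 3 richest segments against all others its ratio was 3.68 (3.20 to 4.22), which overlapped that of Cox8b, at 3.53 (3.06 to 4.05). Srl, which encodes sarcalumenin, a calcium-binding protein of the sarcoplasmic reticulum, ranged from 148 to 244 CPM against 23.3 to 124 CPM, with a ratio of 3.62 (3.09 to 4.23). In all, 9 of the 10 genes had their lowest rich segment above every other segment with at least 10 spots, against 0.263% of the 12950 genes, a contrast that the choice of the genes had used. The segment of 2 spots, ranked 12, exceeded the lowest rich segment in Ttn, Tnnt3 and Tnnc2.

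Away from the rich segments the RNA dropped to a lower level and not to nothing. The summed level was 9057 CPM in ranks 1 to 6, 3853 CPM in ranks 7 to 12, 3124 CPM in ranks 13 to 24 and 2765 CPM (2716 to 2815) in ranks 25 to 48. As shares of the rich level, these were 42.5%, 34.5% and 30.5%. Most of the step lay between the first bin and the second, and the last 36 ranks differed far less from each other. In ranks 25 to 48 the genes kept between 16.7% of their rich level (Car3) and 38.9% (Ttn), with Acta1 at 31.0%, Tnnt3 at 31.4%, Ckm at 33.4%, Neb at 35.5%, Tnnc2 at 27.5%, Myl1 at 27.3%, Srl at 26.3% and Cox8b at 23.1%. None of the 10 genes, each with 663 UMIs or more, was at 0 in any of the 40 other segments with at least 10 spots. How many other genes of such counts stayed above 0 there was not counted.

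**Figure D2:**
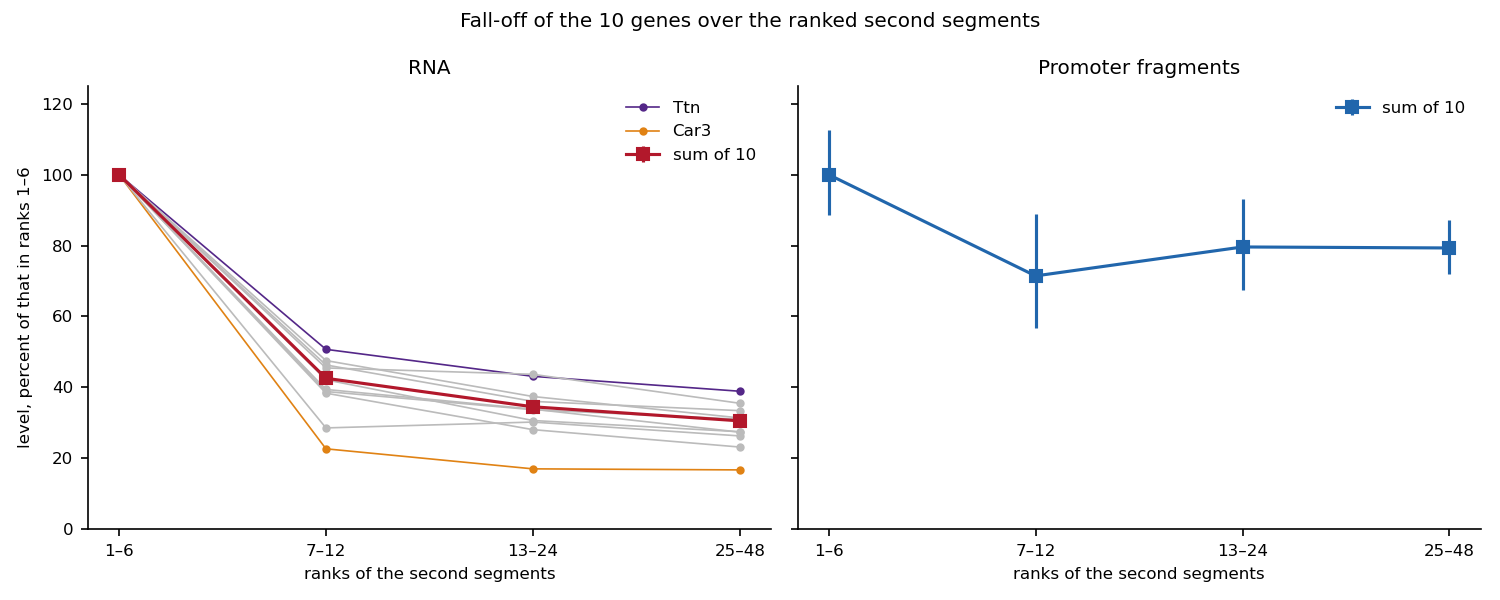
Level in each bin of second segments as a percent of the level in ranks 1 to 6, for RNA (left) and promoter fragments (right). The red and blue squares are sums over the 10 genes with exact 95% Poisson intervals, the grey lines are single genes, and Car3 and Ttn are coloured. RNA drops to 42.5% in ranks 7 to 12 and 30.5% in ranks 25 to 48, while the summed promoter level stays above 70% in each bin.

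At the level of single spots, 1992 of the 1993 spots held at least 1 UMI of the 10 genes. The summed level of a spot ran from 2733 to 30433 CPM in the rich segments with a median of 7971 CPM, and from 0 to 10561 CPM in the rest with a median of 2911 CPM. Of the 280 rich spots, 276 (98.6%) stood above the upper quartile of the rest and 1 stood under the median of the rest. Only 7 of the 1713 other spots (0.409%) exceeded the median of the rich spots, and 6 of these 7 carried second segments ranked 7 to 16. A rich spot held RNA of 9 of the 10 genes at the median and another spot held 6.

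The share of spots with a UMI depends on depth, which was higher in the rich segments, at a median of 4907 UMIs per spot against 4015 in the rest. Among spots with at least 2000 UMIs, 276 in the rich segments and 978 in ranks 25 to 48, Acta1 was seen in 98.9% and 84.9%, and in an expected 91.6% and 63.1% after thinning every spot to 2000 UMIs. Tnnc2 was seen in 100% and 85.6% of these spots, and in an expected 95.4% and 63.6% after thinning. Car3 was seen in 72.1% and 22.6%, and in 45.3% and 11.4% after thinning, and Srl in 58.0% and 20.7%, and in 31.0% and 9.87% after thinning.

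The make-up of the RNA of the 10 genes was then compared between the rich segments and ranks 25 to 48. Acta1 made up 18.3% of the UMIs of the 10 genes in the rich segments and 18.54% in ranks 25 to 48, and relative to the other 9 its level differed by a ratio of 0.982 (0.927 to 1.04). Tnnt3, at 0.970 (0.907 to 1.04), and Srl, at 1.17 (0.974 to 1.40), likewise had intervals that included 1. The other 7 genes had intervals that left 1 out. Car3 took 4.16% of these UMIs in the rich segments and 2.27% in ranks 25 to 48, a relative ratio of 1.86 (1.61 to 2.16), and Cox8b took 3.36% and 2.54%, a relative ratio of 1.33 (1.15 to 1.54). Tnnc2, at 1.14 (1.08 to 1.21), and Myl1, at 1.13 (1.04 to 1.22), were also enriched in the rich segments relative to the other 9. Ttn took 14.7% and 18.7%, a relative ratio of 0.748 (0.704 to 0.795), and Ckm, at 0.903 (0.840 to 0.971), and Neb, at 0.857 (0.738 to 0.995), lay on the same side. Ttn, Ckm and Neb were thus on one side, and Car3, Cox8b, Tnnc2 and Myl1 on the other.

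**Figure D3:**
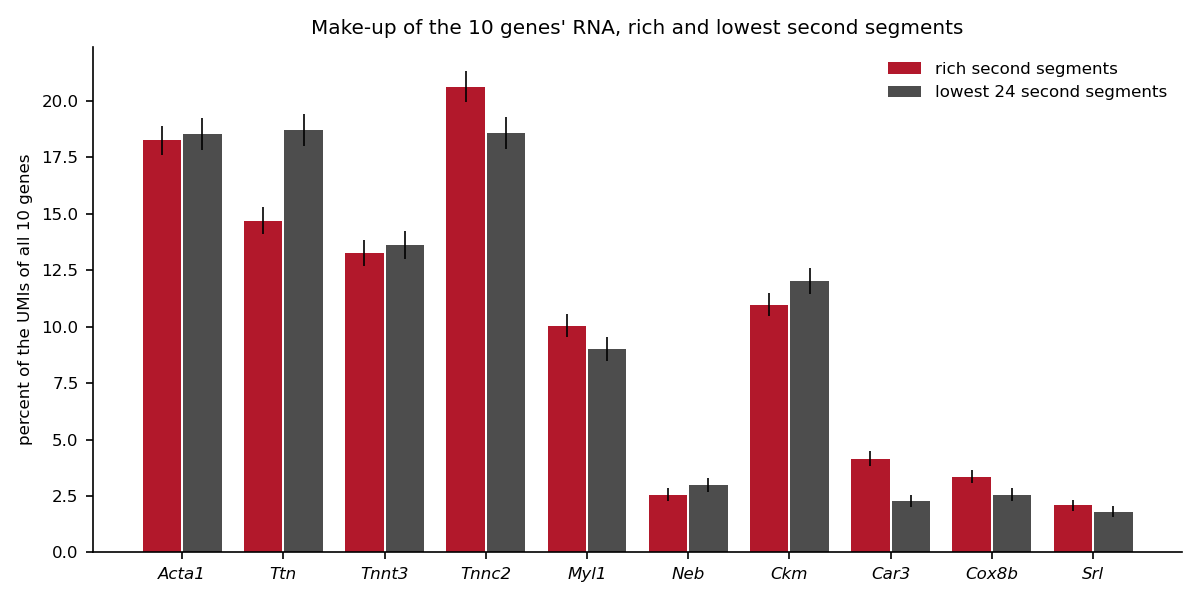
Share of each gene (percent, y axis) among the UMIs of all 10 genes in the rich second segments (red) and in ranks 25 to 48 (grey), with exact 95% Clopper-Pearson intervals. The bars of Acta1 are nearly level at 18.3% and 18.54%, those of Ttn rise from 14.7% to 18.7%, and those of Car3 drop from 4.16% to 2.27%.

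Accessible DNA of the same genes was read from the same spots, with a median of 38006.5 fragments per spot in the rich segments and 20509 in the rest. Its fragments come from nuclei, whereas RNA also fills the cytoplasm. A promoter fragment is a fragment that overlaps the 1 kb on each side of the annotated start, and its level is given in promoter CPM, scaled to 1000000 promoter fragments of the same spots. The 10 windows held few fragments, 925 in all spots together. Among 21702 coding genes, whose median window held 160 fragments, the windows of 9 of the 10 genes held fewer than that, from 31 in Myl1 to 145 in Tnnt3, and that of Car3 held 177. By contrast the UMI counts of the 10 genes stood between percentile 86.6 (Srl) and percentile 99.6 (Tnnc2) of the same coding genes. A deposited peak lay within 1 kb of the start of Tnnc2 and of Car3, and of none of the other 8 at the start used here.

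The summed promoter level was 179 promoter CPM (158 to 201) in the rich segments and 140 promoter CPM (130 to 151) in the rest, a ratio of 1.28 (1.11 to 1.47), where the RNA of the same genes gave 3.03. The median promoter ratio of the 10 genes was 1.20, and that of the 28564 genes with at least 20 promoter fragments was 0.974. Only 3 of the 10 had an interval that lay wholly above 1, against 12.1% of those 28564 genes. These were Tnnt3, with 52 fragments in the rich segments and 93 in the rest and a ratio of 1.69 (1.18 to 2.40), Tnnc2, with 35 and 66 and a ratio of 1.60 (1.03 to 2.45), and Ckm, with 32 and 56 and a ratio of 1.73 (1.08 to 2.71). The call of Ckm was lost with the 3 richest segments against all others (1.19, 0.622 to 2.13) and that of Tnnc2 without the richest segment (1.52, 0.934 to 2.41). The same 3 of 10 were at least 1.5-fold higher, against 11.5% of the same 28564 genes. Acta1, with 44 and 98 fragments, had a ratio of 1.36 (0.927 to 1.95). It was 1.49 (1.01 to 2.17) in spots with at least 2000 UMIs and 1.01 (0.760 to 1.32) with windows of 2 kb. Srl, with 19 and 46, had a ratio of 1.25 (0.690 to 2.17). Cox8b, at 1.16 (0.701 to 1.87), Car3, at 1.06 (0.741 to 1.49), and Myl1, at 1.05 (0.406 to 2.43), had intervals on both sides of 1. Neb, with 8 and 40 fragments, stood at 0.604 (0.244 to 1.31).

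With 6 rich segments Car3 thus had the highest RNA ratio of the 10 and a promoter level that did not differ detectably between the groups in this window at this depth. In 9 of the 10 genes the whole interval of the RNA ratio lay above that of the promoter ratio, and the exception was Ckm, where they overlapped between 2.64 and 2.71. Of all 12868 genes with enough UMIs and promoter fragments 6.3% met this criterion, and of the 711 among them at least 2-fold higher in RNA 44.4% did. The 10 genes had been chosen for their RNA in these spots, which favours a high RNA ratio, so the count is a description. It was 8 at the upstream starts of the deposited feature table, where Ttn also overlapped, 7 with windows of 500 bp, where Tnnt3 and Myl1 also overlapped, 8 with the 3 richest segments, where Tnnc2 and Neb overlapped and Ckm did not, and 7 with segments ranked by promoter fragments. The 62 other muscle genes, whose RNA had ranked the segments, had an RNA ratio of 2.76 (2.71 to 2.80) and a promoter ratio of 1.43 (1.36 to 1.501). Of the other marker lists that were higher in RNA in the rich segments, brown fat had 4.67 (3.83 to 5.70) in RNA and 1.43 (1.14 to 1.79) in promoters, bone 2.80 (2.36 to 3.31) and 1.80 (1.46 to 2.22), and heart muscle 2.36 (1.76 to 3.12) and 1.09 (0.888 to 1.33), so that their RNA intervals too lay above those of the promoters. For the sum of 6 markers of fibroblasts and connective tissue the intervals overlapped, with 2.79 (2.70 to 2.90) in RNA and 2.49 (2.13 to 2.92) in promoters. Single markers within it differed. Dcn had 1.54 (1.09 to 2.14) in RNA and 0.266 (0.0523 to 0.847) in promoters, which did not overlap, and Lum had 1.86 (0.837 to 3.86) and 4.20 (2.76 to 6.43). The intervals of the sums also overlapped for cartilage, with 1.79 (1.40 to 2.28) and 1.58 (1.27 to 1.95), and for the smooth muscle and red blood cell markers. The sum of the 6 neuron markers, which was lower in the rich segments, stood at 0.657 (0.633 to 0.682) in RNA and at 0.355 (0.303 to 0.414) in promoters, so there the promoters differed more than the RNA. For the sum of the 5 radial glia markers the intervals overlapped, with 0.709 (0.648 to 0.774) in RNA and 0.764 (0.651 to 0.894) in promoters.

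**Figure D4:**
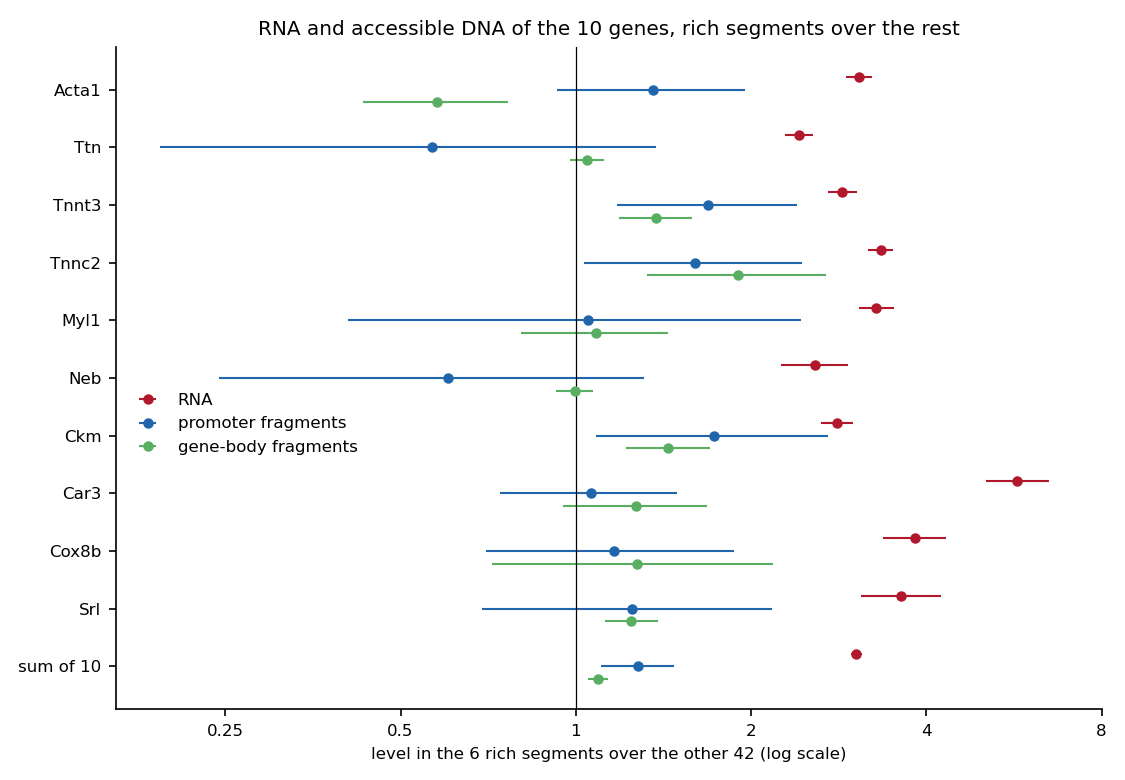
Level in the 6 rich second segments over that in the other 42 (x axis, log scale) for RNA, promoter fragments and gene-body fragments of each of the 10 genes and of their sum, with exact 95% intervals. RNA ratios lie between 2.42 and 5.73, and all promoter ratios lie at 1.73 or lower.

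The place taken as the start mattered for Ttn. At the start of its principal transcript the window held 6 fragments in the rich segments and 32 in the rest, a ratio of 0.566 (0.193 to 1.37). The most upstream start in the deposited feature table lies 2365 bp away, beside the Ttn sequence shown above, with a deposited peak within 1 kb. There the window held 22 and 36 fragments, a ratio of 1.85 (1.03 to 3.22). For Myl1, whose 2 starts lie 9789 bp apart, the ratio at the upstream start was 1.29 (0.599 to 2.63). With these starts the sum over the 10 genes was 1.35 (1.17 to 1.55).

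Fragments over the whole gene body were then counted, which gave 3381 fragments of the 10 genes in the rich segments. Their summed ratio was 1.09 (1.05 to 1.14). Tnnc2 had 1.90 (1.32 to 2.69), Ckm 1.44 (1.22 to 1.70), Tnnt3 1.37 (1.19 to 1.58) and Srl 1.25 (1.12 to 1.38), the 4 whose intervals lay above 1, against 16.5% of the 29274 genes with at least 20 fragments. Tnnc2 was the 1 gene of 10 at least 1.5-fold higher, against 5.39% of the same genes. Acta1 stood at 0.578 (0.430 to 0.765) over its body of 2983 bp, on the opposite side of 1 from its promoter. Another gene, Gm29773, starts within 2 kb of the start of Acta1, and its part in this value was not tested.

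Over the ranked bins the summed promoter level of the 10 genes fell less than their RNA. The summed promoter level was 179 promoter CPM (158 to 201) in ranks 1 to 6, 128 (101 to 159) in ranks 7 to 12, 142 (121 to 167) in ranks 13 to 24 and 142 (129 to 156) in ranks 25 to 48. The 3 lower bins overlapped in their intervals. Ranks 1 to 6 also overlapped ranks 7 to 12 and ranks 13 to 24, and lay apart from ranks 25 to 48 only. Tnnc2 went from 22.8 (15.9 to 31.7) through 20.5 and 16.5 to 12.0 (8.36 to 16.7) promoter CPM over the 4 bins. The other 2 genes with an interval above 1 did not fall in steps, with Tnnt3 at 33.8, 17.4, 12.9 and 23.3 promoter CPM and Ckm at 20.8 in the first bin, 12.7 in the last and lower than both in between, nor did Car3, at 29.9, 18.9, 37.7 and 26.7. Set against ranks 25 to 48 alone, Tnnc2 had a ratio of 1.90 (1.15 to 3.12), while the intervals of Tnnt3, at 1.45 (0.992 to 2.11), and of Ckm, at 1.64 (0.990 to 2.71), included 1. The other muscle genes, whose RNA ranked the segments, went from 1446 promoter CPM (1387 to 1508) in ranks 1 to 6 through 1133 (1051 to 1219) and 1037 (978 to 1100) to 979 (944 to 1016) in ranks 25 to 48, with the first bin apart from the rest. Single segments overlapped too, since the rich segments ranged from 126 to 219 promoter CPM and 23 of the 40 others with at least 10 spots were at or above the lowest of them. Over 46 second segments the RNA level and the promoter level of the 10 genes had a Pearson correlation of 0.269 and a Spearman correlation of 0.205, and over the 40 segments outside the rich ones 0.049 and 0.044. Points of this kind share the same spots in both libraries and rest on few promoter fragments per segment.

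The 10 genes also varied along the first segments. Within the rich second segments, all 50 first segments had a higher summed level than the same first segment had in the rest, by 1.76-fold to 7.52-fold with a median of 2.63-fold. The level ran from 4963 to 22754 CPM over first segments in the rich second segments, a 4.59-fold span, and from 2554 to 3846 CPM in the rest, a 1.51-fold span. The Pearson correlation between both sets of levels over the 50 first segments was 0.279 and the Spearman correlation 0.481. The first segment with the highest level held 5 rich spots, with Acta1 at 4770 CPM, Tnnc2 at 5004 CPM and Ttn at 3519 CPM.

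Car3 peaked elsewhere. Its highest level, 1551 CPM, came in the first segment that was number 14 in the order of the summed level, and its next highest, 1233 CPM, in number 29. Over the 50 first segments the Pearson correlation of a gene with the other 9, on the scale of log2(CPM + 10), was 0.302 for Car3 and 0.484 for Cox8b, and between 0.590 (Neb) and 0.895 (Tnnc2) for the other 8. Both of these genes are also known from fat. The 5 genes of fat cells called brown fat markers here (Ucp1, Cidea, Plin1, Adipoq and Fabp4) are not all particular to brown fat. They had together 409 UMIs, with a ratio of 4.67 (3.83 to 5.70) between rich segments and the rest. All 5 markers were seen, the least of them, Adipoq, with 23 UMIs, and Ucp1, the uncoupling protein that defines brown fat, with 27 UMIs. Most UMIs of the 5 markers were of Cidea, with 187, and Fabp4, with 143. Their summed level in the 6 rich segments ran from 56.9 to 258 CPM and was highest in rank 4, where Car3 also had its highest level, 732 CPM.

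The 5 first segments with most RNA of these markers within the rich segments (27 spots) held 87 UMIs of them. Of these, 39 were of Cidea, 35 of Fabp4 and 3 of Ucp1. In these 5 first segments Car3 stood at 1136 CPM against 295 CPM in the other 45, a ratio of 3.85 (3.20 to 4.62), and Cox8b at 551 CPM against 278 CPM, a ratio of 1.99 (1.54 to 2.53). The sarcomere genes did not share this difference, with ratios from 0.683 (0.432 to 1.04) for Neb to 1.12 (0.994 to 1.27) for Tnnc2, and Ckm was lower there, at 0.799 (0.657 to 0.964). Across the 50 first segments the Pearson correlation of the brown fat level with Car3 was 0.445 on the log2(CPM + 10) scale and 0.804 on the CPM scale, and the Spearman correlation was 0.273. Without the 2 first segments farthest from the median brown fat level the Pearson value on the CPM scale was 0.545, so the relation rested in part on those 2. With those 5 first segments left out of the rich group, Car3 had an RNA ratio of 4.50 (3.93 to 5.14) and Cox8b one of 3.48 (3.05 to 3.97). The part of fat cells in the levels of Car3 and Cox8b was not tested.

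**Figure D5:**
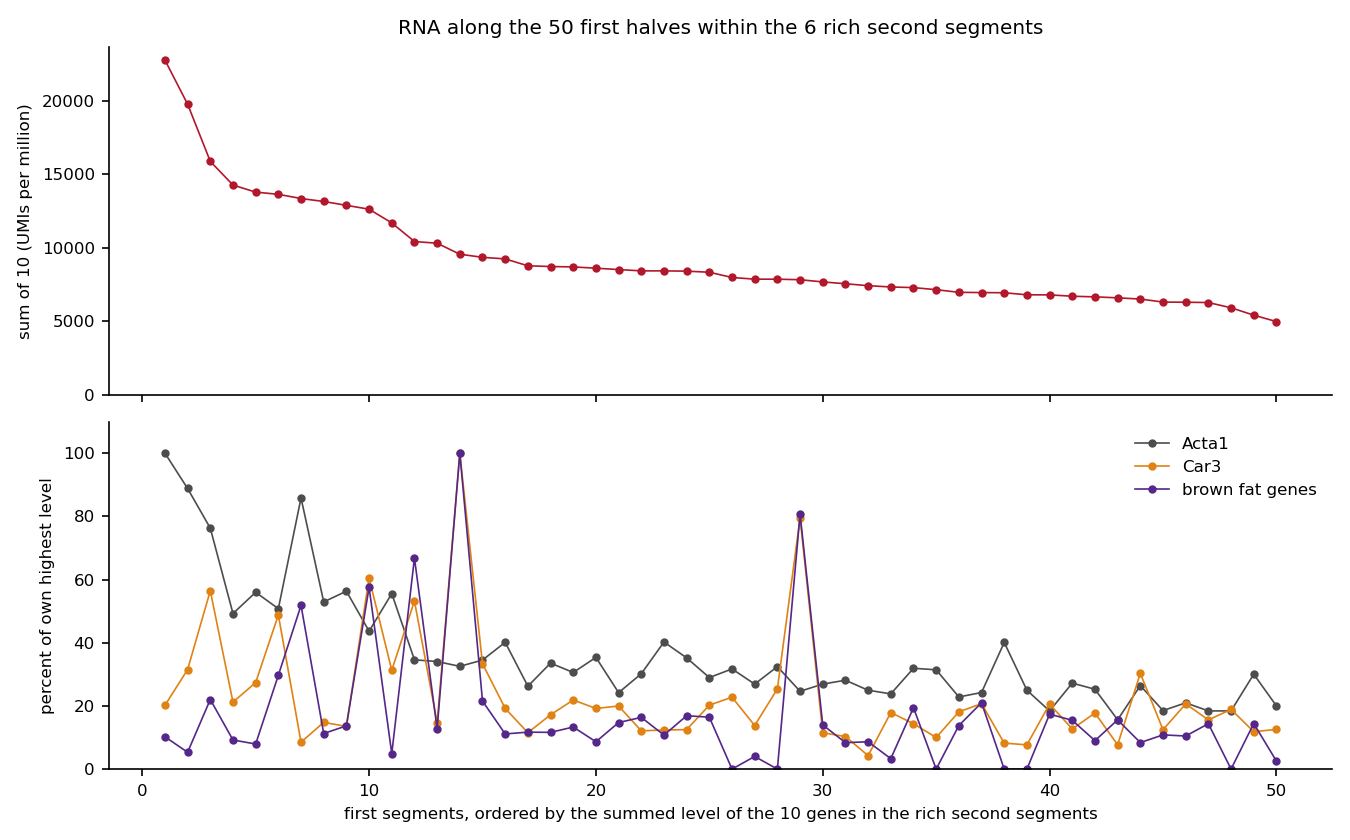
RNA along the 50 first segments within the 6 rich second segments, ordered by the summed level of the 10 genes. The upper panel gives that sum (CPM), and the lower panel gives Acta1, Car3 and the sum of 5 brown fat markers, each as a percent of its own highest level. Car3 and the brown fat markers both peak at numbers 14 and 29 of the order, where Acta1 is far under its highest level of 4770 CPM at number 1.

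The choice of the 10 genes, from RNA seen to gather in some spots, favoured their correlation over second segments. Over 46 second segments with at least 10 spots the pairwise Pearson correlations on the log2(CPM + 10) scale ran from 0.575 (Neb and Car3) to 0.926 (Tnnc2 and Myl1) with a median of 0.814. Over the 40 segments outside the rich ones they ran from -0.133 (Tnnc2 and Srl) to 0.615 (Ttn and Myl1) with a median of 0.389. These points share 1 library and differ in depth, and the values are descriptions.

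The 62 other muscle genes are the ones that ranked the segments, so their higher RNA in the rich segments was fixed by that ranking and is no independent support. Their values show how far each group of them differed, beside 5.52% of all 12950 genes at least 2-fold higher. Of 28 other sarcomere genes, 25 had at least 50 UMIs and all 25 were at least 2-fold higher in the rich segments, with a summed ratio of 3.11 (3.05 to 3.17). Myh8, the perinatal myosin heavy chain, had 3.29 (3.15 to 3.43), Mylpf, a fast myosin regulatory light chain, 3.02 (2.90 to 3.16), and Tnni2, the fast troponin I, 3.17 (2.99 to 3.36). Of 11 genes of calcium handling, 8 were at least 2-fold higher, with Atp2a1, the calcium pump of the sarcoplasmic reticulum, at 3.03 (2.67 to 3.44), Sln, its small inhibitor, at 2.62 (2.32 to 2.96) and Ryr1, its release channel, at 1.68 (1.44 to 1.96). Of 11 tested metabolic genes, 9 were at least 2-fold higher, with the muscle enolase Eno3 at 2.86 (2.66 to 3.06), Pgam2 of glycolysis at 2.93 (2.67 to 3.21) and the aldolase Aldoa, which other tissues use too, at 1.56 (1.46 to 1.66). Of 5 tested regulators, 3 were at least 2-fold higher. The methyltransferase Smyd1 had 2.77 (1.81 to 4.20), Pax7, a factor of muscle stem cells and of parts of the brain, 1.12 (0.711 to 1.70), and Mef2c, a factor that neurons also use, 1.26 (1.15 to 1.39).

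Genes outside the muscle lists were compared with the sum of the 10 over all 48 second segments, the 2 with few reads included. Over these 48 the median correlation between pairs of the 10 genes was 0.659, against 0.814 over 46, so those 2 segments weigh on such values. The genes most like the sum were Tpm1, a tropomyosin, with a Pearson correlation of 0.919, and the imprinted genes H19 at 0.888, Igf2 at 0.794 and Cdkn1c at 0.731. Cmss1 (0.730), Airn (0.730), Gm42418 (0.728) and Lgals1 (0.703) followed. Tpm1 had an RNA ratio of 2.78 (2.62 to 2.95) and a promoter ratio of 2.54 (1.94 to 3.31), H19 had 2.59 (2.50 to 2.68) and 2.11 (1.57 to 2.82), and Lgals1 had 2.50 (2.33 to 2.68) and 2.41 (1.96 to 2.96). Of these 8 genes, 5 had RNA and promoter intervals that overlapped (Tpm1, H19, Cdkn1c, Airn and Lgals1), and in Igf2, Cmss1 and Gm42418 the RNA interval lay above that of the promoter. Of the cartilage markers Matn1 was at 0, while Acan had a ratio of 2.41 (1.52 to 3.74) and Col2a1 one of 1.59 (1.18 to 2.12). Of the 6 heart muscle markers 5 had a ratio above 1, namely Myl3 at 4.24 (2.73 to 6.57) and Myl2 at 2.23 (1.15 to 4.15), both also used by slow skeletal muscle, and Myh6 at 2.16 (0.587 to 6.73), Tnni3 at 1.72 (0.664 to 4.02) and Myl7 at 1.69 (0.477 to 4.98), while Nppa had 0 of its 25 UMIs in the rich segments. Smooth muscle markers summed to 1.37 (0.998 to 1.86), with Acta2 at 1.87 (1.26 to 2.73), Cnn1 at 2.37 (0.214 to 16.5), Tagln at 0.851 (0.321 to 1.92) and Myh11 at 0.692 (0.264 to 1.54), and those of red blood cells to 1.07 (1.04 to 1.10). Their part in the levels of the 10 genes was not tested.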

How the data were processed

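SPARC-seq RNA and chromatin accessibility were measured in 1 library each. The authors had run cellranger-arc 2.0.1 with an mm10 (GRCm38) reference, per the file headers, and Seurat 4.0 is named in the submitters' processing notes. The deposited matrix holds raw counts (UMIs per gene and cut sites per peak, 1993 barcodes), and the deposited fragment file holds coordinates with a count of read pairs for 2500 barcodes. None of the deposited values was normalised. The rule that chose the 1993 barcodes is not given in the sources used here.

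Values were computed with Python 3.11.15, scipy 1.17.1 and pandas 2.3.3. The 10 genes, the marker lists and the comparisons were chosen with earlier results of these data known. Second segments were ranked by 62 other muscle genes, and the 6 richest were set against the other 42 and, for fall-off, the lowest 24. Starts were the most upstream of the principal transcripts in GENCODE M21, which covered 99.8% of the genes. Intervals are exact Poisson, Clopper-Pearson and conditional binomial intervals at 95%. UMIs and collapsed fragments are counted as independent molecules. With 1 library per assay no test was made. Named genes are all 10 genes, the 3 genes with most UMIs of each muscle list, and the 8 genes with at least 200 UMIs most correlated with the sum. Single markers of the other lists are named outside this rule. The promoters printed were to be those of the 3 genes with most fragments, of which RefSeq sequence was at hand for Acta1. Those of Ttn, Tnnc2 and Ckm, the gene bodies, the feature-table starts and the brown fat comparison along first segments were chosen after values were seen. The interval of the ratio was tried on simulated Poisson counts, which hold counting error only and no other spread. Alternatives in the choice of spots, segments, ranking, window and total are given in the closing section.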

Additional observations from a re-analysis of the deposited data

Results flagged for a closer look

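The accessibility library held 507 barcodes that are not in the count matrix and enter no comparison above. Their promoter windows of the 10 genes held 105 fragments, or 206 promoter CPM (169 to 249), scaled to all promoter fragments of those barcodes, against 150 promoter CPM (140 to 160) in the barcodes of the matrix. Scaled instead to all fragments, the levels were 18.0 CPM (14.7 to 21.8) outside and 19.6 CPM (18.4 to 20.9) in the matrix, since 8.74% of the fragments outside and 13.1% of those in the matrix lay in promoter windows, so the higher level outside held on the first scale only. Of the 105 fragments, 26 carried one of the 6 rich second segments and 79 another, at 246 (161 to 360) and 196 (155 to 244) promoter CPM, a ratio of 1.26 (0.774 to 1.98). No library served as a control for this signal.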

How the results depend on the processing

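The summed RNA and promoter ratios and the RNA ratios of all 10 genes stayed above 1 under every alternative run for them. The summed RNA ratio of 3.03 ranged from 2.82 to 3.10 over 13 alternatives. It left its interval with the 3 richest segments (2.84), the 8 richest (2.91), ranking by promoter fragments of the other muscle genes (2.82), without the richest segment (2.88) and without Tnnc2 (2.96). Ranking by promoter fragments shared 5 of the 6 rich segments, and ranking by the 10 genes themselves shared all 6. The share of UMIs in the rich segments, 39.0%, became 22.5% with 3 segments and 40.8% with 8, by construction, 32.1% under the promoter ranking, 34.2% without the richest segment, 40.0% in spots with at least 2000 UMIs and 38.5% without Tnnc2. The level in the 24 lowest segments, 2765 CPM, became 2822 CPM under the promoter ranking, 2252 CPM without Tnnc2, since fewer genes were summed, and 2903 CPM with Gm42418 left out of the total. The summed promoter ratio of 1.28 ranged from 1.09, over gene bodies, to 1.46, with windows of 500 bp. The number of genes with a promoter interval above 1 ranged from 2 to 4. Ckm lost that place with the 3 richest segments (1.19, 0.622 to 2.13) and the 8 richest (1.53, 0.960 to 2.39), and Tnnc2 without the richest segment (1.52, 0.934 to 2.41), while Tnnt3 kept it in all 14 run for it. Against the 24 lowest segments in place of all 42, Tnnt3 (1.45, 0.992 to 2.11) and Ckm (1.64, 0.990 to 2.71) lost it and Tnnc2 (1.90, 1.15 to 3.12) did not. The number with an RNA interval wholly above the promoter interval, 9, ranged from 7 to 10. Insertions count both ends of a fragment, so that their intervals are too narrow. Of single genes, Car3 had an RNA ratio of 3.68 (3.20 to 4.22) with the 3 richest segments, where ranks 4 to 6 counted with the rest. Acta1 was above 1 in 13 of 14 promoter alternatives, Ttn in 2 of 14 and Neb in 0 of 14. No paired analysis was possible because each assay had 1 library.

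The limits are those of 1 library per assay. Intervals hold counting error only and no spread between animals. Promoter fragments numbered only 31 to 177 per gene, and for 7 of the 10 the promoter interval as reported included 1. For 3 of these 7 another promoter count gave an interval above 1, namely Acta1 in spots with at least 2000 UMIs (1.49, 1.01 to 2.17), by insertions (1.46, 1.12 to 1.91) and at 500 bp (1.73, 1.01 to 2.89), Ttn at the upstream start (1.85, 1.03 to 3.22) and Cox8b at 2 kb (1.57, 1.15 to 2.12), and Srl had one over its gene body (1.25, 1.12 to 1.38). Acta1 had such an interval in only 3 of 14 alternatives. It was at 1.01 (0.760 to 1.32) at 2 kb and at 1.16 (0.699 to 1.83) with the 3 richest segments.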
